A study of Homo sapiens with 9 samples.

Results

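The 77 genes that encode the proteins of the human cytosolic ribosome were followed across 5 lists of RNA polymerase II (RNAPII) peaks from HEK293 cells, a human embryonic kidney line. They were taken by name from the 20175 protein-coding genes of the GENCODE annotation on GRCh37: symbols RPS or RPL followed by a number and at most an A or X, together with RPLP0, RPLP1, RPLP2 and RPSA. Of the 77, 31 encode small-subunit and 46 large-subunit proteins. A gene was given every peak that touched its span widened by 500 bp. The level of RECQL5, a DNA helicase that binds RNAPII, was altered before chromatin was immunoprecipitated with an RNAPII antibody and sequenced (ChIP-seq). In 3 libraries HEK293 cells had been infected with a lentivirus for RECQL5 shRNA5, for RECQL5 shRNA7 or for the control. The control is labelled control shRNA, but the paper lists it as an empty vector. The lists of all 3 are called hairpin lists below. In 2 further libraries HEK293 T-REx cells, transfected with the pcDNA4/TO-RECQL5 plasmid that expresses full-length RECQL5 from a doxycycline-inducible promoter, were grown with 0.0 (uninduced) or 1.0 ng/ml (induced) doxycycline. Peaks were called against 4 IgG libraries, 1 for each lentivirus and 1 from untreated cells for the doxycycline lists. Every group was 1 library, so no difference below has a replicate check and no p-value was computed. Whether a hairpin line was a pool or a clone is not given in the sources used here.

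Each ribosome carries a single copy of nearly every ribosomal protein, and the stalk proteins RPLP1 and RPLP2 are the known exception. The genes are short, expressed in every cell and among the most heavily transcribed in dividing cells. Their transcripts start with a cytosine inside a run of pyrimidines, the 5′ terminal oligopyrimidine (TOP) element, through which the mTOR pathway controls their translation, and the introns of many of them contain small nucleolar RNAs (snoRNAs), which guide the modification of ribosomal RNA.

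The sequences at the annotated starts were read from GRCh37, since they are the feature by which these genes are best known and they fix the base from which distances below were counted. The annotated first base was a C in 62 of the 77 members (80.5%) and in 10.8% of all protein-coding genes. A run of at least 5 pyrimidines beginning with C within 10 bases of the start was found in 73 members (94.8%) and in 33.5% of all genes. Runs were counted from the such C nearest the start, even where further pyrimidines stood directly before it. Counted in this way, the runs of the members had a median length of 8 bases (range 5 to 19), and the full pyrimidine stretch can be longer. In the sequences below, written 5′ to 3′ on the strand of the gene, base 16 of 30 is the annotated first base. The capitals mark the run as counted, and pyrimidines directly before it are left in small letters. The stalk genes RPLP0 (chr12:120638900-120638929, minus strand), RPLP1 (chr15:69745142-69745171, plus) and RPLP2 (chr11:809952-809981, plus) are followed by the small-subunit genes RPSA (chr3:39448196-39448225, plus), RPS14 (chr5:149829288-149829317, minus) and RPS19 (chr19:42364310-42364339, plus). The next are the large-subunit genes RPL13A (chr19:49990850-49990879, plus), RPL41 (chr12:56510402-56510431, plus) and RPL3 (chr22:39715614-39715643, minus), and the last is RPS4X (chrX:71497084-71497113, minus), 1 of the 4 members with no such run at the annotated start.
RPLP0: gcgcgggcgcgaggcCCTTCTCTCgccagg
RPLP1: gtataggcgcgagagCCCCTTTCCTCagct
RPLP2: ttgcgtcggcgccttCCTTTTCCTCCCTgt
RPSA: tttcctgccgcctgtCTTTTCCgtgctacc
RPS14: ccgccccctcccactCTCTCTTTCCggtgt
RPS19: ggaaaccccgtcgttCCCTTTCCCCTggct
RPL13A: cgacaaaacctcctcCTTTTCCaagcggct
RPL41: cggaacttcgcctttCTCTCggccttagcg
RPL3: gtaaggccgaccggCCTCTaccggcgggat
RPS4X: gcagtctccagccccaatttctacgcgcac
In the RPL3 sequence the counted run began 1 base before the annotated start. In several others, among them RPL13A and RPL41, uncounted pyrimidines stood directly before the capitals, so that the unbroken stretch also began before the start. From 250 bases before to 50 after the start, the letters CCGGAAG on either strand, part of the site of ETS factors, were found in 27 members (35.1%) and in 14% of all genes. The letters ATGGCG on either strand, part of the YY1 site, were found in 25 members (32.5%) and in 14.5% of all genes. The TATA box letters TATAAA on either strand were found in 6 members (7.79%) and in 9.77% of all genes. CTTCCGG, the other strand of CCGGAAG, opens with pyrimidines and could overlap the run. These matches describe letters, not binding.

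The members spanned 21 chromosomes, with 12 on chromosome 19. The median span of their representative transcript was 4450 bp (range 1335 to 14576), against 22659 bp for all protein-coding genes. The 5 lists held between 5287 peaks (control shRNA) and 47060 peaks (no doxycycline), with 842310 to 6698771 tags, the sequenced fragment ends inside peaks, which the authors did not scale between libraries. Library totals were not used here. The RECQL5 hairpin lists exceeded the control list in number of peaks by a larger factor than the study describes, and whether these lists are the version the study used is not given in the sources used here. Every value relative to the control rests on the control list as deposited. Of 5 HEK293 markers, VIM, KRT8 and KRT18 had a peak in all 5 lists, PAX2 in the no doxycycline list alone and NEFM in none, and none of 5 markers of blood and liver cells had a peak in any list. The peaks on RECQL5 held 0, 0, 748, 1171 and 1623 tags in the control, shRNA5, shRNA7, no doxycycline and doxycycline lists, a measure of polymerase on the gene that does not check its knockdown or induction.

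All 77 ribosomal protein genes had a peak in all 5 lists. Of all protein-coding genes, 22.7% had a peak in the control list, 52.6% upon shRNA5, 60.6% upon shRNA7, 64.2% in uninduced cells and 53.7% in induced cells. In the control list, which was the shortest, the members' 116 peaks were 2.19% of all peaks and held 5.68% of all tags in peaks. The corresponding share of tags was 2.49% upon shRNA5, 2.16% upon shRNA7 and 3.30% in either doxycycline list. The share was thus lower in the longer hairpin lists, in which many other genes also had peaks.

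The peaks covered not only the starts but the bodies of the genes. The annotated start of all 77 members lay inside a peak in all 5 lists, and among all genes with a peak the start was covered in 67.9%, 76.8%, 81.4%, 80.4% and 80.4% in the control, shRNA5, shRNA7, no doxycycline and doxycycline lists. At the midpoint of the transcript a peak was present in 61, 73, 76, 75 and 74 members in the same order, while the midpoint was covered in 12.9%, 17.1%, 23.9%, 10.7% and 9.90% of all genes with a peak. Since the members are short, they were also set beside the genes whose representative transcript was at most 10 kb, a class chosen after the data were seen. There the midpoint was covered in 31.8%, 40.2%, 55.7%, 25.6% and 22.1% of genes with a peak.

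**Figure D1:**
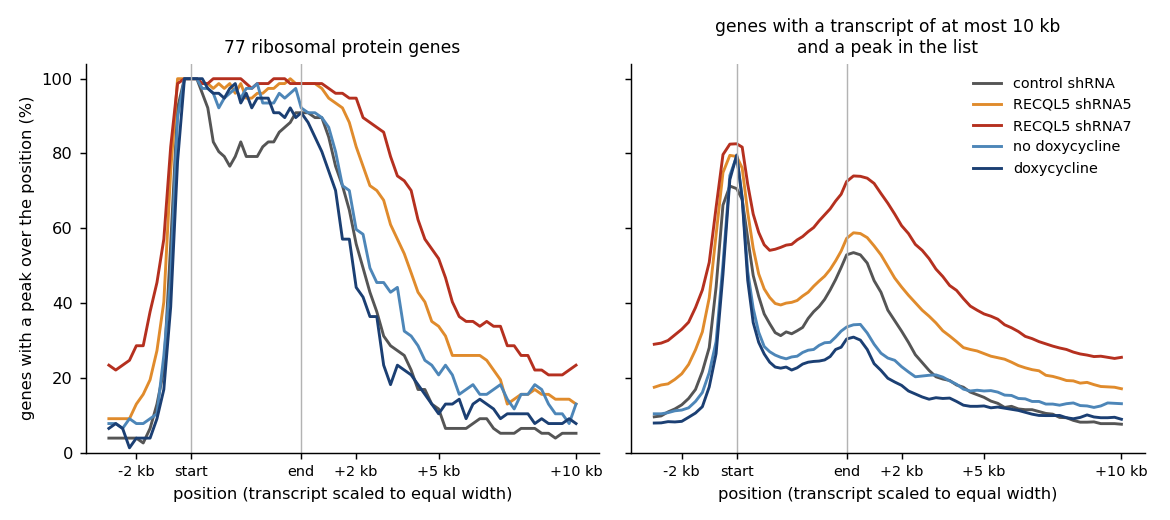
Percentage of genes with an RNAPII peak over each position (y axis) from 3 kb before the start to 10 kb past the end of the representative transcript, which was scaled to equal width (x axis), for the 77 ribosomal protein genes (left) and for genes with a transcript of at most 10 kb and a peak in the list (right), 1 line per list. The members' starts were covered in every list, the control line dipped to 61 of 77 genes at the midpoint and rose to 70 at the end, and the shRNA7 line stayed highest past the end.

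The whole transcript, from annotated start to annotated end, lay inside a single peak in 42 members in the control list. The count was 69 with shRNA5 and 74 with shRNA7, and 56 and 52 in the uninduced and induced cells. The corresponding percentages of all genes with a peak were 5.00%, 5.08%, 8.61%, 2.16% and 2.34%, and those of the short genes were 16.6%, 19.6%, 32.9%, 8.76% and 9.27%. In the control list 28 further members had the start and the end in separate peaks with a gap between them, and 7 had the start alone in a peak. All 42 members in 1 peak in the control list were also in 1 peak with either RECQL5 hairpin. Of the 28 with a gap, 24 were in 1 peak upon shRNA5, all but RPL22, RPL28, RPL35A and RPS13, and 27 upon shRNA7, all but RPL22. Of the 7 with the start alone, 3 were in 1 peak upon shRNA5 and 5 upon shRNA7. In the doxycycline arm 47 of the 56 members in 1 peak without the drug were also in 1 peak with it. There were 31 members in 1 peak in all 5 lists and 3, RPL7, RPL14 and RPL22, in none. When peaks under 1 kb apart were joined, the counts were 57, 72, 76, 71 and 69, so that some of the gaps were under 1 kb.

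The tag density of a gene, its tags per kb of peak, was used to compare levels between genes of different length. The median density of the members was 74.98 tags per kb in the control list (range 39.0 to 141.7), 110.9 upon shRNA5, 136.5 upon shRNA7, 69.3 in uninduced cells and 83.9 in induced cells. The medians of all genes with a peak were 49.7, 51.7, 56.3, 29.8 and 39.5 tags per kb. In the order of the lists above, 46, 66, 72, 62 and 60 of the 77 members were in the top 10% of all genes with a peak. Densities were not compared between the hairpin and doxycycline arms, which differed in cell line and IgG library.

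**Figure D2:**
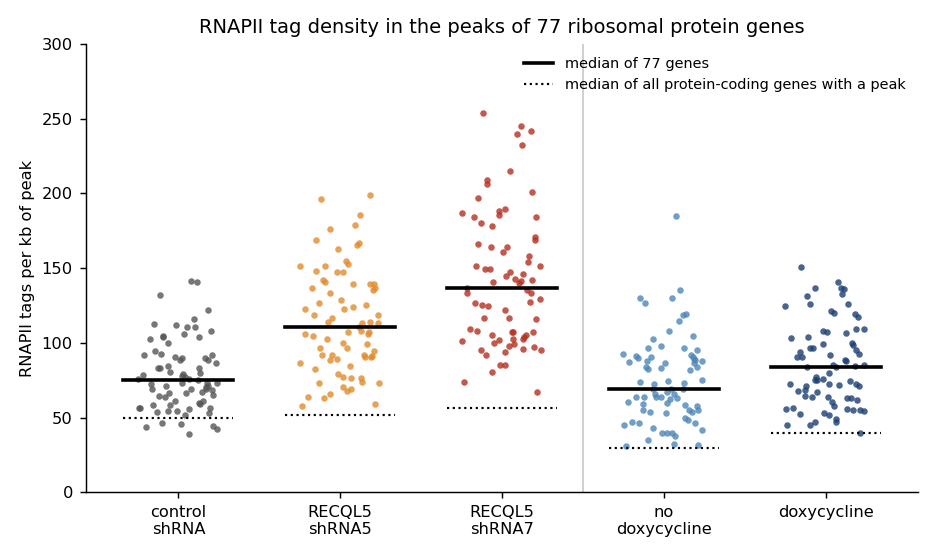
RNAPII tags per kb of peak (y axis) for each of the 77 ribosomal protein genes (points) in the 5 lists (x axis), with the median of the 77 (solid bar) and the median of all protein-coding genes with a peak (dotted bar). The members' median lay at 74.98, 110.9 and 136.5 in the hairpin lists and at 69.3 and 83.9 in the doxycycline lists, above the dotted bar in each.

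The summit of the peak with the most tags lay within 500 bp of the start in 59 members in the control list, 60 upon shRNA5, 60 upon shRNA7, 71 in uninduced cells and 69 in induced cells. Among all genes with a peak the percentages were 48.4%, 41.0%, 38.7%, 65.9% and 66.2%. The median distance of that summit from the start was 51, 43, 45, 42 and 38 bp downstream, just inside the transcript. In 10, 11, 12, 3 and 3 members the summit lay past the transcript end instead, as it did in 17.7%, 20.9%, 26.2%, 6.90% and 7.22% of all genes with a peak, so this was no more frequent among the members.

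Among the genes of the acidic stalk, which recruits the elongation factors to the ribosome, RPLP0 encodes the scaffold to which the RPLP1 and RPLP2 proteins bind. In the same order of the 5 lists, RPLP0 had densities of 71.3, 114.0, 141.8, 89.2 and 109.0 tags per kb. It had 2 control peaks, on either side of a short gap from 2895 to 2963 bp after the start, and 1 peak in each of the other lists. RPLP1 was in 1 peak throughout and had 92.2, 123.0, 136.5, 87.3 and 103.4 tags per kb. RPLP2 had the lowest density of the stalk genes in every list, with 45.6, 70.8, 85.2, 53.2 and 63.7 tags per kb. The density ratio of RPLP0 was 1.6 upon shRNA5 (95% interval 1.445 to 1.773) and 1.99 upon shRNA7 (1.81 to 2.19). For RPLP1 the ratios were 1.33 and 1.48, and for RPLP2 they were 1.55 and 1.87. Intervals of ratios are exact conditional binomial intervals of the tag counts and cover counting error only.

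The small-subunit members had a median of 70.6, 99.04, 116.6, 67.3 and 72.4 tags per kb in the 5 lists. RPS19, the gene most often mutated in Diamond-Blackfan anaemia, was covered over its whole length of more than 12 kb by 1 peak in each list. It touched no other protein-coding gene except CD79A upon shRNA7. That peak held 1867, 3251, 4638, 1686 and 1989 tags, at 116.1, 178.6, 240.0, 114.5 and 136.8 tags per kb. RPS14, whose loss underlies the anaemia of the 5q- syndrome, had 92.1, 139.4, 169.0, 83.8 and 92.5 tags per kb. These values put RPS19 and RPS14 above the small-subunit median in all 5 lists. RPSA, also known as the laminin receptor, had 58.3, 82.7, 108.0, 46.6 and 52.6 tags per kb and lay below it in each. Its transcript was in 1 peak in the hairpin lists and in separate peaks in the doxycycline lists, but the breaks were very short. Without doxycycline a peak ended 4010 bp after the start and the next began at 4013 bp. With doxycycline the breaks ran from 796 to 862 bp and from 5516 to 5588 bp.

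RPS6, the substrate of the S6 kinases, had 89.8, 147.6, 189.7, 67.3 and 72.2 tags per kb. RPS3, a protein of the mRNA entry channel, had 68.8, 94.8, 115.8, 57.6 and 71.2 tags per kb. RPS27A, made as a fusion with ubiquitin, had 69.1, 124.3, 143.1, 63.4 and 72.1 tags per kb, and its peak also touched CLHC1 and MTIF2 in each list. RPS4X, the X-linked gene without a pyrimidine run at its annotated start, was among the densest members, with 140.9, 166.9, 245.1, 118.8 and 136.1 tags per kb. All 4 had their lowest hairpin density in the control list and their highest upon shRNA7, and had a higher density with doxycycline than without. This was the general course and not a trait of the 4. The median density ratios of all genes were 1.25 upon shRNA5, 1.41 upon shRNA7 and 1.27 with doxycycline. The RPS4X peaks also touched PIN4 in each list. At the low end of the control list were RPS25, required for initiation on viral internal ribosome entry sites, with 39.0 tags per kb, RPS13 with 42.4 and RPS21 with 43.8, named after their values were seen. RPS25 had 92, 546 and 799 tags in the 3 hairpin lists, at 69.3 tags per kb upon shRNA5 and 102.5 upon shRNA7. Its densities in the doxycycline arm were 32.3 tags per kb uninduced and 49.1 induced.

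The large-subunit members had a median of 76.9, 114.1, 140.9, 74.2 and 86.6 tags per kb. RPL3, a protein close to the peptidyl transferase centre, lies at chr22:39708887-39716394 on the minus strand and had 112.8, 168.7, 166.0, 130.1 and 150.8 tags per kb. It was the densest member in the doxycycline list. RPL5 and RPL11, which enter the ribosome with the 5S RNA and can bind the p53 regulator MDM2, differed in density: RPL5 had 79.5, 122.7, 145.0, 74.6 and 91.8 tags per kb, and RPL11 had 58.5, 91.8, 100, 63.5 and 74.9. RPL5 lay in 1 peak in each list, whereas RPL11 had 2 control peaks with a gap from 1664 to 2015 bp after the start.

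RPL10, the late-joining protein that completes the peptidyl transferase centre, had 104.6, 140.7, 206.5, 82.3 and 126.3 tags per kb. RPL10A, a protein of the L1 stalk, was in the densest 3 in each of the hairpin lists, with 132.0, 196.0 and 254.1 tags per kb, and had 127.0 and 131.1 without and with doxycycline. RPL37 had 199.2 and RPL17 185.9 tags per kb upon shRNA5, which with RPL10A were the highest values of that list. At the other end, RPL21 and RPL22 were in the lowest 3 of every list but the control list. RPL21 had 56.3, 58.0, 73.9, 31.2 and 45.3 tags per kb, and RPL22 had 44.3, 59.1, 67.2, 31.6 and 39.9. Across the 77 genes the order of densities was similar between lists: Spearman's rho was 0.91 and 0.78 between the control list and shRNA5 and shRNA7, and 0.94 between the doxycycline lists, as a description across genes, which share gene length and base composition and are not replicates.

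RPL41, which encodes one of the smallest known proteins, followed another course. Its density was 141.7 tags per kb in the control list, 139.6 with shRNA5 and 99.3 with shRNA7, and 184.7 and 140.6 in the uninduced and induced cells. Its density was the highest of the 77 in the control and no doxycycline lists and was the only one that was lower upon shRNA7. Its peak measured 3147 bp (chr12:56509561-56512707) with 446 tags in the control list and 28896 bp (chr12:56499929-56528824) with 2869 tags upon shRNA7. ESYT1 and ZC3H10 were touched in each list, and PA2G4 upon shRNA5 and shRNA7. Tags of the neighbours could not be told apart from those of RPL41, and ChIP-seq carries no strand.

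**Figure D3:**
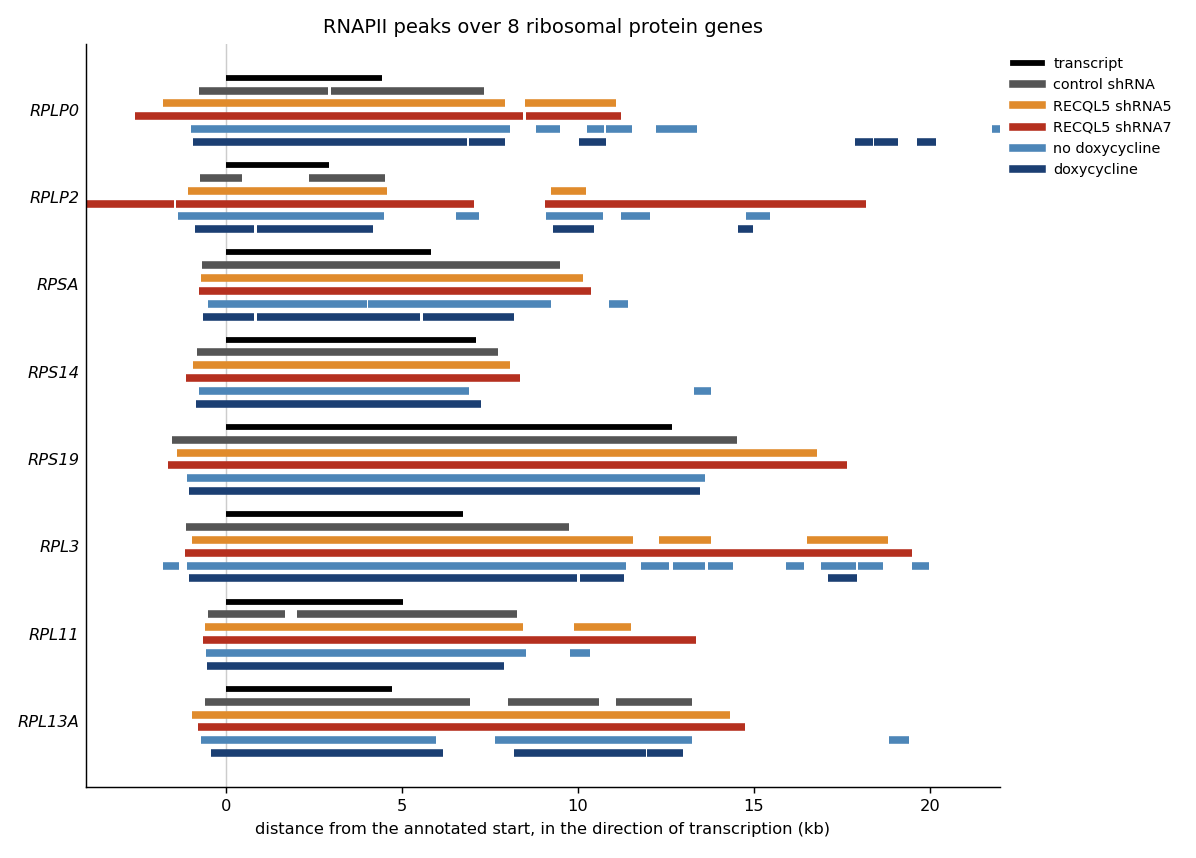
RNAPII peaks (coloured bars, 1 row per list) over 8 ribosomal protein genes, by distance from the annotated start in the direction of transcription (x axis, kb), with the transcript in black. RPLP0, RPLP2 and RPL11 had separate control peaks at start and end, RPS19 was covered from start to end in each list, and 1 peak upon shRNA7 ran 12761 bp past the end of RPL3.

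Upon RECQL5 shRNA5 the peaks of the ribosomal protein genes were longer and denser than in the control list. The median covered length, the summed length of a gene's peaks, was 7556 bp in the control list and 9916 bp upon shRNA5. The median ratio of covered length was 1.33 (95% order-statistic interval over genes 1.24 to 1.43), and 76 of 77 members were above 1, the exception being RPL23A at 0.9996, as were 97.2% of all genes. Over the 4552 protein-coding genes with a peak in both lists, the median ratio was 2.62. A ratio of at least 1.5 was found for 25 members, against 77.4% of all genes, and none was at or below 1/1.5, against 0.242%. Nearly all members and nearly all other genes thus had longer peaks, and the share past the 1.5-fold threshold was lower among the members, a difference that was not tested. Among the short genes the median ratio was 1.93.

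The density ratio ran the other way. Its median over the members was 1.45 (1.41 to 1.51) upon shRNA5, against 1.25 over all genes and 1.35 over the short genes. Density divides tags by covered length, so the ratios of density and length are not independent. A higher density ratio therefore does not mean a larger gain in tags. The members' peaks held 47833 tags in the control list and 94188 upon shRNA5. These were 5.68% and 2.49% of all tags in peaks, including peaks on genes without a control peak. At least 1.5-fold higher density was found for 31 members, against 14.1% of all genes, and at least 1.5-fold lower for none, against 0.154%. The counting interval of the ratio lay above 1 in 72 members, against 52.6% of all genes, and above the median of all genes, 1.25, in 51, against 16.5%. Such an interval is narrower the more tags a gene holds. Among the highest ratios was that of RPL12, a protein at the base of the stalk, with 76.2 and 151.5 tags per kb and a ratio of 1.99 (1.81 to 2.19) on peaks of 8244 and 8526 bp. For RPS27A the ratio was 1.8 (1.61 to 2.02). RPL12 and RPS27A each lay in 1 peak in both lists. The lowest ratios were those of RPL41 with 0.985 (0.882 to 1.101), RPL7 with 0.9985 (0.815 to 1.232) and RPL21 with 1.03 (0.795 to 1.352), whose intervals include 1.

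Upon shRNA7, compared with the same control library, the differences were in the same direction. The median covered length was 11911 bp, with a median ratio of 1.62 (1.42 to 2.01), against 4.80 over the 4384 genes with a peak in both lists and 3.46 over the short genes. A ratio of at least 1.5 was found for 42 members, against 90.4% of all genes, and of 1/1.5 or less for none, against 0.593%. The median density ratio was 1.82 (1.73 to 1.93), against 1.41 over all genes and 1.699 over the short genes, so that the members stood closer to the short genes than to all genes. Here too a higher density ratio does not mean a larger gain in tags. The members' peaks held 144774 tags upon shRNA7, 2.16% of all tags in peaks, against 5.68% in the control list. At least 1.5-fold higher density was found for 66 members, against 41.6% of all genes, and at least 1.5-fold lower for none, against 0.274%. The counting interval lay above 1 in 75 members, against 67.4% of all genes, and below it in 1, RPL41, against 1.94%.

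Among the highest density ratios upon shRNA7 were those of RPS25 at 2.63 (2.12 to 3.30) and RPS21 at 2.495 (2.06 to 3.05). Both genes were at the low end of the control list. The lowest were RPL41 at 0.701 (0.634 to 0.776), RPL7 at 1.21 (0.996 to 1.485) and RPL23A at 1.27 (1.195 to 1.34). RPL23A, a protein at the exit tunnel where the signal recognition particle docks, lay in a peak of 13234 bp (chr17:27043319-27056552) in the control list and of 38947 bp (chr17:27018508-27057454) upon shRNA7. Its densities in the 5 lists were 110.5, 165.8, 139.9, 135.3 and 132.8 tags per kb. The control peak touched NEK8, RAB34 and TLCD1, and the shRNA7 peak PROCA1 and SUPT6H as well. The largest ratios of covered length upon shRNA7 were those of RPL21 and RPL41, the latter at 9.18. RPL21 was covered over 1172 bp in the control list, 8625 bp upon shRNA5 and 11005 bp upon shRNA7, with 66, 500 and 813 tags, a ratio of 7.36 upon shRNA5 and 9.39 upon shRNA7. RPL30 was covered over 1251, 6412 and 7956 bp, a ratio of 5.13 and 6.36. RPL7 was covered over 1494, 6591 and 8601 bp, a ratio of 4.41 and 5.76. RPL21, RPL30 and RPL7 had a control peak at the start alone. Peaks touched another protein-coding gene in 42 members in the control list, 49 under shRNA5 and 55 under shRNA7. Over the members whose peaks touched no other gene in either list, the density ratios were 1.45 upon shRNA5 (28 members) and 1.79 upon shRNA7 (22 members).

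**Figure D4:**
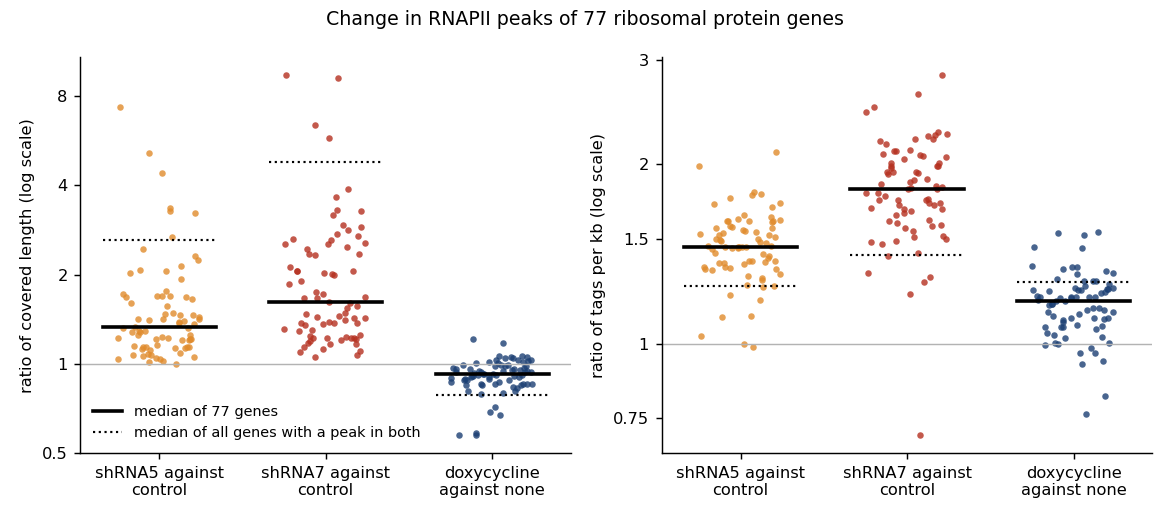
Ratio of covered length (left) and of tags per kb (right), on log scales, for each of the 77 ribosomal protein genes (points) in the 3 comparisons (x axis), with the median of the 77 (solid bar) and that of all protein-coding genes with a peak in both lists (dotted bar). The hairpin medians lay below the dotted bar for covered length (1.33 and 1.62 against 2.62 and 4.80) and above it for density (1.45 and 1.82 against 1.25 and 1.41).

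With doxycycline the peaks were slightly shorter and denser than without. The median covered length was 7901 bp without and 7106 bp with doxycycline. The median ratio was 0.925 (0.901 to 0.949), against 0.786 over the 10608 genes with a peak in both lists. The ratio was above 1 in 16 members and in 28.8% of all genes. None of the members was covered over at least 1.5 times the length, against 7.85% of all genes, and 3 over 1/1.5 or less, against 37.5%. The highest ratios were those of RPS27 at 1.21, RPS25 at 1.18 and RPS26 at 1.06. The 3 shortened members were RPS21 (4156 to 2384 bp), RPL14 (7364 to 4230 bp) and RPL10 (7955 to 4638 bp), named after their values were seen. The share of members past the threshold was lower than that of all genes in both directions, a difference that was not tested.

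The median density ratio with doxycycline was 1.18 (1.129 to 1.199), against 1.27 over all genes and 1.222 over the short genes. The ratio was above 1 in 68 members and in 85.2% of all genes, a similar share. At least 1.5-fold higher density was found for 3 members, against 18.2% of all genes, and at least 1.5-fold lower for none, against 0.679%. The 3 were RPL24, a protein of a bridge between the subunits, with 48.5 tags per kb without and 74.7 with doxycycline and a ratio of 1.54 (1.36 to 1.75), RPL10 with 1.53 (1.37 to 1.72) and RPS25 with 1.52 (1.21 to 1.92). The RPL10 peak over the start held 606 tags from -1027 to 4828 bp without doxycycline. With doxycycline it held 586 tags from -1034 to 3603 bp. Weak further peaks, such as one of 13 tags from 5128 to 5783 bp, also entered its density without doxycycline. The counting interval lay below the median of all genes in 32 members, against 8.46% of all genes, and above it in 3, against 6.37%. Among the lowest ratios were those of RPL41 at 0.762 (0.680 to 0.853), with an interval below 1, and RPS2 at 0.924 (0.827 to 1.031), with an interval that includes 1. The sum of a member's tags, density times length, had a median ratio of 1.05, against 0.957 over all genes.

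RNAPII peaks extended beyond the annotated 3′ ends of most members. Reach was measured from the gene end to the far edge of the gene's last peak, and was negative where the peaks stopped inside the gene. Its median was 1587 bp in the control list, 3402 bp upon shRNA5, 4340 bp upon shRNA7, 1469 bp in uninduced cells and 1262 bp in induced cells. A reach of at least 1 kb was found for 53 members in the control list against 25.6% of all genes, for 61 upon shRNA5 against 35.2%, and for 63 upon shRNA7 against 47.8%. Without doxycycline it was found for 52 members against 10.1% of all genes, and with doxycycline for 44 against 10.2%. RPSA and RPS4X had a negative reach in each list, although their peaks ran past the end of the representative transcript. Past the end of the representative transcript the medians were 1920, 3768, 4592, 1912 and 1767 bp. At 2 kb past that end a peak was present in 43, 63, 73, 46 and 34 members (55.8%, 81.8%, 94.8%, 59.7% and 44.2%), against 22.1%, 35.6%, 48.4%, 13.6% and 12.0% of all genes with a peak and 32.5%, 44.3%, 60.7%, 23% and 18% of the short genes. At 5 kb it was present in 9, 26, 40, 16 and 8 members (11.7%, 33.8%, 51.9%, 20.8% and 10.4%), against 10.2%, 21.9%, 29.6%, 9.85% and 8.19% of all genes and 14.8%, 26.5%, 37.1%, 16.5% and 12.5% of the short genes. In the control list and in induced cells the members' share at 5 kb was thus close to that of all genes and below that of the short genes. In the RECQL5 hairpin lists and in uninduced cells it was above both.

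For the 30 members with no other protein-coding gene within 5 kb downstream, the median reach past the transcript end was 1860 bp in the control list, 3543 bp upon shRNA5, 4521 bp upon shRNA7, 1682 bp in uninduced cells and 1760 bp in induced cells. A reach of at least 5 kb was found for 0 of the 30 in the control list, 4 upon shRNA5, 11 upon shRNA7, 1 in uninduced cells and 0 in induced cells. Among them RPL3 reached 3013, 4809, 12761, 4625 and 3217 bp past its end in the 5 lists. RPL11 reached 3232, 3415, 8338, 3503 and 2856 bp. RPS12 reached 4568, 6361, 4592, 1912 and 1945 bp, farthest upon shRNA5. RPS15 reached 4157, 5401, 6035, 5444 and 4247 bp, and RPS10 3421, 3595, 6011, 3768 and 2822 bp. Of these 5 genes, all but RPS12 had their longest reach upon shRNA7, where the RPS15 peak also touched APC2 and DAZAP1. Between the doxycycline lists the reach past the gene end was shorter by at least 1 kb in 19 of the 77 members and longer by at least 1 kb in 3, with a median difference of -437 bp. Over all genes with a peak in both lists 34.8% were shorter and 16.1% longer by as much, with a median of -188 bp, so neither change was more frequent among the members.

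**Figure D5:**
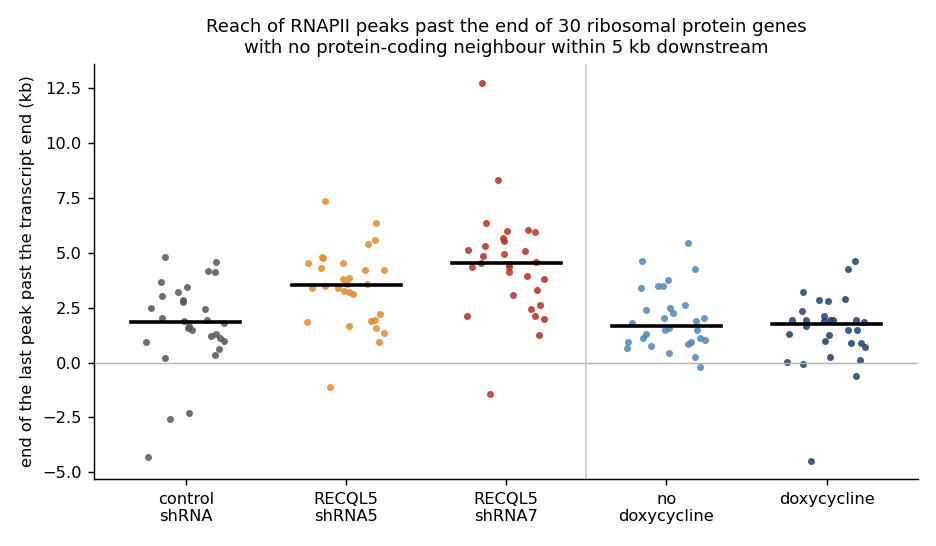
Distance from the annotated transcript end to the far edge of the last RNAPII peak (y axis, kb) for the 30 ribosomal protein genes with no protein-coding neighbour within 5 kb downstream (points), by list (x axis), with medians as bars. The medians were 1860, 3543 and 4521 bp for control, shRNA5 and shRNA7, and 1682 and 1760 bp without and with doxycycline.

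The members were also divided by what they contain. There were 29 hosts of annotated snoRNA genes, with 60 such genes between them, and 48 members without. The hosts had a median density of 76.2, 122.7, 145.0, 82.3 and 90.8 tags per kb, and the others 74.3, 107.4, 134.2, 68.2 and 75.04. The median density ratios of hosts and others were 1.496 and 1.45 upon shRNA5, 1.82 and 1.83 upon shRNA7, and 1.165 and 1.18 with doxycycline, with overlapping intervals. The small-subunit and large-subunit members had ratios of 1.45 and 1.48, of 1.83 and 1.803, and of 1.15 and 1.18, also with overlapping intervals. All these intervals cover the spread over genes only, and no difference between these groups of members was tested.

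The mitochondrial ribosomal protein genes, which encode a separate ribosome and do not belong to the set, gave other values. Of 78, a peak was found on 41 in the control list, 74 upon shRNA5, 73 upon shRNA7, 77 in uninduced cells and 78 in induced cells. Their whole transcript lay in 1 peak in 2, 5, 12, 3 and 0 genes, and their median density was 52.4, 55.2, 60.7, 40.7 and 46.5 tags per kb, below that of the cytosolic set in each list. Upon shRNA5 and shRNA7 their median ratio of covered length was 2.28 and 4.55, and of density 1.297 and 1.398. Of 22 other genes of translation, among them elongation factor EEF2 and initiation factor EIF4A1, 19, 22, 21, 22 and 22 had a peak, and 6, 6, 10, 6 and 7 had the whole transcript in 1 peak. Of those with a peak, 68.4%, 68.2%, 81%, 54.5% and 40.9% reached at least 1 kb past the gene end, against 68.8%, 79.2%, 81.8%, 67.5% and 57.1% of the members. Their control densities ran from 41.8 (EEF1G) to 164.1 tags per kb (EEF1A1), against 39.0 to 141.7 for the members. High density and long reach were thus not particular to the members. Of 8 paralogs outside the set, 3, 5, 7, 7 and 6 had a peak, and RPL10L had none in any list.

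The human genome holds many processed pseudogenes of these genes, which are near-copies of their exons. Of 913 such pseudogenes, 2 had a peak in the control list (0.219%, 95% Wilson interval 0.0601 to 0.795), 11 upon shRNA5 (1.2%), 20 upon shRNA7 (2.19%), 31 in uninduced cells (3.40%) and 12 in induced cells (1.31%). Among 5766 other processed pseudogenes the percentages were 0.330%, 1.4%, 2.17%, 2.22% and 0.763%. In the members a median of 15.3% of the 32-base words of the transcript span occurred more than once in GRCh37, and 62 of 77 had under 20%. In RPS2 the share was 32.4%.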

How the data were processed

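RNAPII and IgG ChIP-seq libraries of HEK293 cells were sequenced as short single-end reads, processed with CASAVA 1.8 and aligned by the authors to hg19 with Bowtie 0.12.7. Alignment files were merged, of what is not given in the sources used here, reads in blacklisted regions were removed, and peaks were called by the authors per library against IgG with MACS 1.4.2. The deposited lists give each peak's position, length and summit offset in bp, the count of tags in it, not normalised, and the authors' significance score, fold enrichment over local background and false discovery rate in percent. The last 3 values served only to filter peaks.

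Genes, spans and representative transcripts (MANE Select, otherwise canonical, otherwise longest coding sequence) came from GENCODE 44 lifted to GRCh37, and sequences from GRCh37, the same build as hg19. A gene received every peak overlapping its span widened by 500 bp by at least 1 bp, and a peak over several genes counted for each. A fold was counted as past the threshold from 1.5. Scripts in Python 3.11.15 with pandas 2.3.3, NumPy 2.4.6 and SciPy 1.17.1 were tested on simulated peaks. No deposited column of values lacked a sample.

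The members and lists were chosen with earlier results of these data known. Named genes were a list by role, the 3 densest and 3 farthest-reaching members per list, the 3 highest and lowest density ratios and 3 highest length ratios per comparison, and any member with no peak, of which there were none. Genes named after their values were seen are marked. Some genes that the rule names are not reported here, but stay in all counts and medians. Each group was 1 library, so p-values and a spread between cultures could not be had, and intervals cover counting error or the spread over genes only. The hairpin comparisons share the control library. Alternatives were stricter peaks, lists of equal length, joined peaks and other gene spans.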

Additional observations from a re-analysis of the deposited data

How the results depend on the processing

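Each of 16 results was recomputed over the members under 8 alternatives, giving 128 values. Of these, 124 stayed inside the interval of the value reported (for the number of members with a peak, within 1.5 times). No median or ratio changed direction, and a count of members has no direction to change. The medians of all genes and of the short genes were not recomputed. The differences between the members and these genes were therefore not checked under the alternatives. When peaks under 1 kb apart were joined, the doxycycline covered length ratio was 0.885, the doxycycline density ratio was 1.22 and the reach past the gene end without doxycycline was 2333 bp. With the representative transcript in place of the gene span, the control reach was 1920 bp. Of 31 values added after seeing the data, 30 stayed near the value reported, and the shRNA5 covered length ratio was 1.23 over the 28 members whose peaks touched no other gene. The cause was not tested. No replicate could be left out, since groups had a single library. No paired analysis was possible because there were no replicates and no result came from a test. Peaks hold no tags below the caller's threshold, at least 9 to 35 per peak depending on the list, so a gap between peaks means that no peak was called there, not that RNAPII was absent. Tags were not scaled between libraries, so ratios are read against the medians of all genes.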
